A study of Mus musculus with 3 samples.

Results

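Back skin of IL-10 knockout mice fed an 8% pESM-supplemented diet (KOE) was compared with back skin of IL-10 knockout mice fed the AIN-93-based diet without it (KO). Both groups lacked functional interleukin-10, a cytokine that restrains inflammation, and they are labelled as differing in diet. WT C57BL/6J mice on the AIN-93-based diet are given beside them only as a reference. pESM is eggshell membrane in powder form, a protein-rich waste of egg processing, and the comparison asks which genes of the knockout skin differed with this diet. The mice were males, housed singly, and the diets ran for 28 weeks from 4 weeks of age. The diet with pESM also held less casein and less β-corn starch than the diet without it. The knockout mice were F2 offspring of B6.129P2-IL-10 tm1Cgn/J and C57BL/6J mice. The groups held 7 KO and 6 KOE mice, and 250 ng of pooled RNA from each group was read on 1 array. The sources used here do not name the mice that went into a pool. No value below has a replicate, and each difference describes these arrays rather than the mice behind them.

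The arrays used here are therefore 2 of the 3 in the series. Of 18193 genes with a probe set named here, 13204 reached 40, the signal limit of the study, in both the KO and the KOE array, and these are the genes compared. A signal is the brightness of a probe set on a linear scale, with the 2% trimmed mean of each array set to 500. A gene was called higher or lower past 1.5-fold. As a technical yardstick, the log2 ratios of different probe sets of the same gene differed with an SD of 0.29 over 6223 genes. The tissue label was checked on defining genes of skin. Krt14, the keratin of basal keratinocytes, had signals of 21861 in KO, 22649.7 in KOE and 20926 in WT, and Krt10, the keratin of the layers above, had 33694 in KO, 36463 in KOE and 29571 in WT. RNA quality controls moved little, the 3′ to 5′ signal ratio of Gapdh being 0.703 in KO and 0.766 in KOE and that of beta-actin 1.51 and 1.56. Il10 itself had 679.9 in KO, 401 in KOE and 17.0 in WT. Whether its probes lie in the part that the knockout alters was not tested, and the value does not check the genotype.

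Skin is a mixed tissue. Keratinocytes build the epidermis and the hair follicles, fibroblasts lay down the collagen of the dermis, and in rodents a thin sheet of skeletal muscle, the panniculus carnosus, lies beneath the dermal fat. Contraction in such muscle depends on myosin and actin filaments, on troponin that answers to calcium, and on a calcium store that is emptied and refilled with each twitch. Immediate early genes are transcription factors and enzymes switched on within minutes of a stimulus, and macrophages and mast cells are the resident immune cells of the dermis.

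In all, 1224 genes, or 9.27%, lay past 1.5-fold. Of these, 780 genes were higher in KOE, or 5.91% of those compared, and 444 were lower, or 3.36%. The other 11980 genes lay within 1.5-fold, and the median log2 ratio was 0.01. A 4-fold difference was reached by 23 genes upward and by 2 downward. The split between the directions rests on the scaling of the arrays. Of the genes past 1.5-fold, 63.7% were higher as deposited, 34.8% after scaling to a common median, which shifts every log2 ratio by −0.16, and 46.3% after quantile as well as after cyclic loess normalization. The share of genes past the limit was larger at weak signals. Between 40 and 100, 18.9% of genes were higher and 8.01% lower, whereas between 400 and 1600 the shares were 2.08% and 2.14%. Probe sets of the same gene had an SD of 0.44 in the former range and 0.19 in the latter. Of the higher genes, 193 had several probe sets at 40, of which 58 had all of them past the limit and 57 had probe sets on both sides of equality. Of the lower genes, 135 had several, with 35 and 43.

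**Figure D1:**
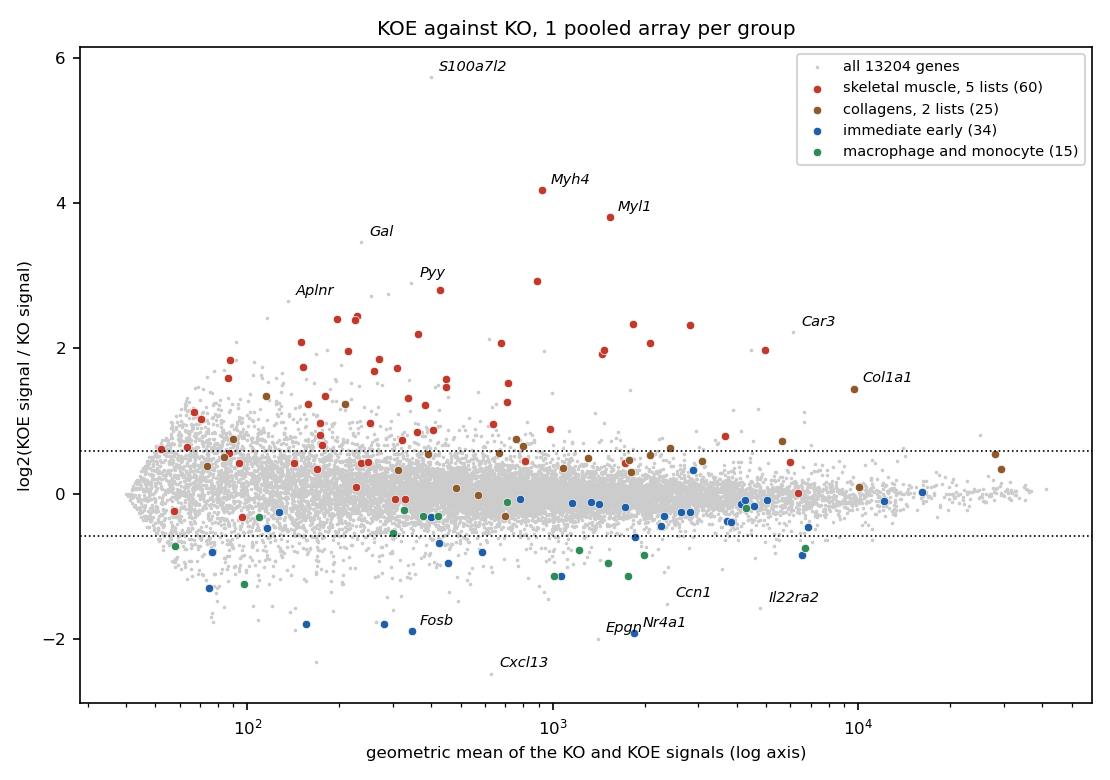
Log2 ratio of the KOE to the KO signal (vertical axis) against the geometric mean of both signals (horizontal, log axis) for the 13204 genes compared, 1 pooled array per group. Dotted lines mark 1.5-fold. Of the 60 muscle genes (red) 45 lie above the upper line, up to Myh4 at a log2 ratio of 4.18, most collagens (brown) lie above 0, and immediate early (blue) and macrophage genes (green) lie mostly below 0.

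Most skeletal muscle genes were higher in KOE. Of 60 genes compared in 5 lists that cover fast and slow fibres, the sarcomere frame, energy supply and excitation-contraction coupling, 45 were higher in the KOE array and 0 lower, against 5.91% of all genes higher. Their median log2 ratio was 1.23, and their signals summed to 32935 in KO, 83635 in KOE and 62641 in WT. In bulk skin, more muscle fibres in a sample and more muscle RNA per fibre cannot be told apart. The sources used here do not say how much muscle each piece of skin held, or whether any left with the fat that was taken off.

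Contractile genes of fast fibres stood out within these lists. Of 13 compared, 12 were higher, with a median log2 ratio of 2.32. Myh4, the heavy chain of the fastest myosin, had a signal of 217 in KO, 3926 in KOE and 4309 in WT, and Myl1, an essential light chain of fast myosin, had 411 in KO, 5735 in KOE and 4753 in WT. The KO signal was the lowest of the 3 in both. Myh1, another fast heavy chain, differed less, with 2779 in KO, 4804 in KOE and 2229.6 in WT, and Myh2, the heavy chain of intermediate fibres, was not past the limit with 312 in KO and 296 in KOE. Tnni2, Tnnt3 and Tnnc2, the subunits of fast troponin, were 4.20-, 3.79- and 5.00-fold higher. Pvalb, which soaks up calcium in fast fibres, had 321 in KO, 2439 in KOE and 1967 in WT. Mylpf, the regulatory light chain, had 811 in KO, 4108 in KOE and 2861 in WT, and Actn3, the actin anchor of fast Z-discs, had 169 in KO, 559.9 in KOE and 550.4 in WT. In Pvalb, Mylpf and Actn3 the KO array was the low one.

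Promoters are shown for 3 of these genes that hold the E-box CAGCTG, which myogenic factors such as MyoD are known to bind. The other fast fibre genes named above were not found to hold it in this window. The sequences are from RefSeq in the GRCm38.p6 build, 5′ to 3′ on the strand of the gene, from 250 bases before its start to 50 after, with each CAGCTG in capitals. They lie at chr11:67237562-67237861 (plus strand) for Myh4, chr1:66945007-66945306 (minus strand) for Myl1 and chr7:127211358-127211657 (plus strand) for Mylpf.
Myh4: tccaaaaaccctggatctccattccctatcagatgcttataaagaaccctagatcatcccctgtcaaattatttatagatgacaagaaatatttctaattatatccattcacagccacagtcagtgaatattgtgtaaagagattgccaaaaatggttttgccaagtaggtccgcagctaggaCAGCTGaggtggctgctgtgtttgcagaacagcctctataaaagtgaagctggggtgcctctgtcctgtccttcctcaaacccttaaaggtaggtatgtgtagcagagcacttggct
Myl1: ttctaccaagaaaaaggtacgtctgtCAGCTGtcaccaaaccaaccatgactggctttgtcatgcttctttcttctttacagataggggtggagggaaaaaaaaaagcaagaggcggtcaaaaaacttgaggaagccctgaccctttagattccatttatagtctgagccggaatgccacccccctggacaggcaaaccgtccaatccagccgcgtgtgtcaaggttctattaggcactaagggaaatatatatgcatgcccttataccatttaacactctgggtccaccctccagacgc
Mylpf: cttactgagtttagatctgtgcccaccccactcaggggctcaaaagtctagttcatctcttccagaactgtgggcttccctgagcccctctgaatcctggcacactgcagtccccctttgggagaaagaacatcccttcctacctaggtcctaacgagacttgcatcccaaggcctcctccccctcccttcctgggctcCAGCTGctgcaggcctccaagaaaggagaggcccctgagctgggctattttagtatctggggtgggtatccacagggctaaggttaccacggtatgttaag
In each the word occurs once, starting 67, 224 and 51 bases before the start. It reads the same on both strands. Of 57 muscle genes of the 5 lists with a promoter in the table, 27 hold it, or 47.4%, against 18.3% of all 27025 genes with a promoter of this length. Among genes with a promoter there, it was 18 of 33 that were higher in KOE and 5 of 11 that lay within 1.5-fold. A match is a word in this window and does not show that a factor binds there.

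Genes of slow fibres gave few values. Of 11 on the array only 5 reached 40 in both arrays, and Myh7, the slow heavy chain, was under 40 in all 3 arrays with 13.5 in KO, 7.94 in KOE and 12.4 in WT. Tnnt1, slow troponin T, was higher with 50.9 in KO and 79.4 in KOE and Myh7b with 42.3 in KO and 64.7 in KOE, both close to the lower limit. Neither was past 1.5-fold after scaling to a common median, quantile or cyclic loess normalization, or with 40 added. Tpm3, a tropomyosin that many cell types share, was 1.01-fold and did not differ past the limit.

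The frame of the sarcomere followed the fast fibre genes, with 13 of 18 higher, none lower and a median log2 ratio of 0.88. Acta1, the actin of skeletal muscle, had 2497 in KO, 9799 in KOE and 5093 in WT. Myoz1, a Z-disc protein of fast fibres, had 169.5 in KO, 778 in KOE and 652 in WT, and its slow counterpart Myoz2 was 1.34-fold. Neb, the ruler of the thin filament, was 2.54-fold and Tcap, the cap of titin, 2.76-fold higher. Ttn, titin itself, was 1.85-fold higher at the probe set used, while its 4 probe sets ranged from 1.08 to 1.85. Des, the intermediate filament of all muscle types, was not past the limit with 1496 in KO and 1998 in KOE.

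Energy genes of muscle were higher in 12 of 15, with none lower and a median log2 ratio of 1.84. Mb, myoglobin, which holds oxygen in muscle, had 162 in KO, 1127 in KOE and 633 in WT. Ckm, the creatine kinase of the cytosol, had 741 in KO, 2916 in KOE and 1942 in WT, and Ckmt2, its mitochondrial partner, had 72.7 in KO, 309 in KOE and 210.1 in WT. Enzymes of glycogen and sugar use that are particular to muscle were higher too, among them Pygm (3.60-fold), Eno3 (4.21-fold) and Pgam2 (5.27-fold). The general machinery did not follow. Of 39 respiratory chain genes none was past the limit in either direction, with a median log2 ratio of −0.03, whereas the muscle isoforms Cox6a2, Cox7a1 and Cox8b were 2.98-, 3.58- and 2.88-fold higher. Cox8b is also known from brown fat. Among 15 glycolysis genes only the muscle phosphofructokinase Pfkm was past it, at 1.94-fold.

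**Figure D2:**
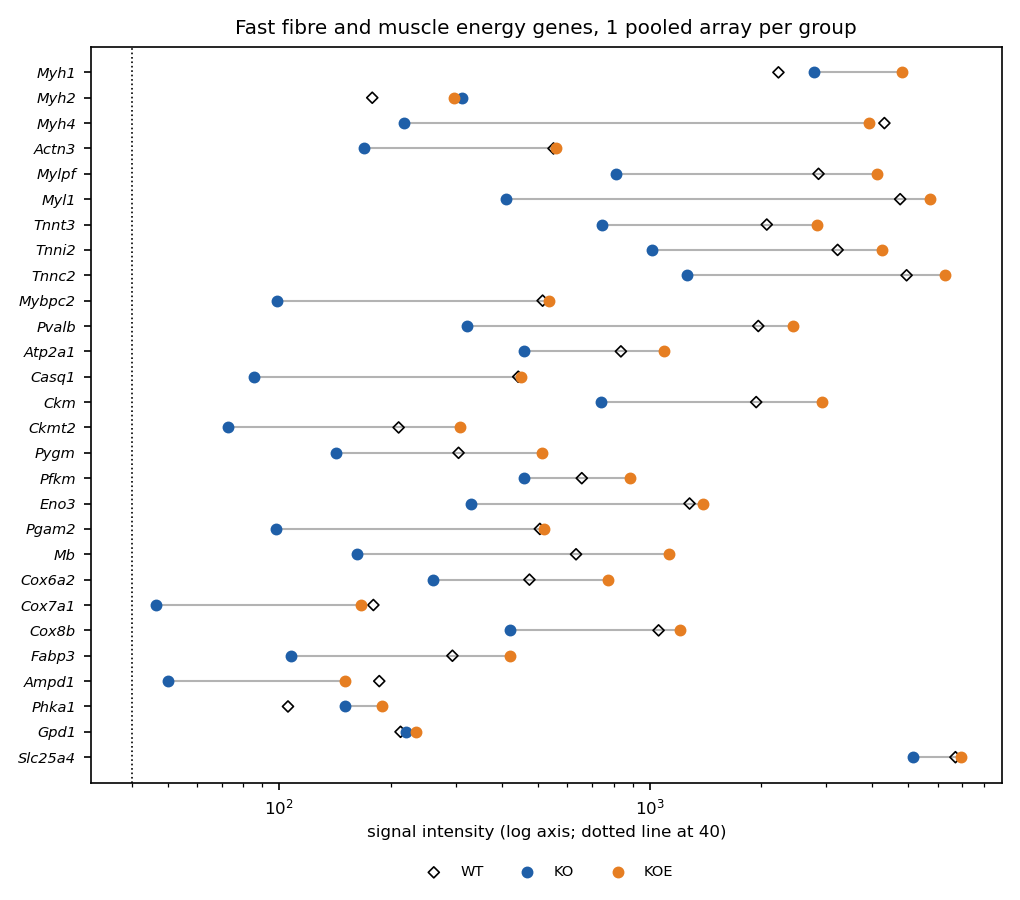
Signal intensity (horizontal, log axis) of the 28 genes of the fast fibre and muscle energy lists with at least 40 in KO and KOE, 1 pooled array per group. Points show KO (blue) and KOE (orange), diamonds show WT and grey lines join KO to KOE. KO is the lowest of the 3 arrays in most rows, with Myh4 at 217 in KO and 3926 in KOE, while Myh2 and Gpd1 nearly coincide.

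Of the genes that couple excitation to calcium release, 6 of 9 were higher and none was lower. Ryr1, the release channel of the calcium store, had 103 in KO, 242 in KOE and 206 in WT, and Casq1, which holds calcium inside it, had 85.3 in KO, 451 in KOE and 442 in WT. Cacna1s, the voltage sensor that opens Ryr1, and Cacng1, its gamma subunit, were under 40 in KO, with 25.6 in KO and 102 in KOE for the former and 5.80 in KO and 51.9 in KOE for the latter, and no ratio is given. At the nerve contact, Rapsn, which clusters acetylcholine receptors, was 1.73-fold higher while the receptor kinase Musk was 1.55-fold lower, and 5 others of 7 lay within the limit.

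Genes that direct muscle formation differed little or were too weak. Mef2a, Mef2c and Mef2d were 1.04-, 1.06- and 1.01-fold, and Myog, Myf5 and Pax7 were under 40 in both KO and KOE. Myod1 had 31.2 in KO and 52.5 in KOE, and Myf6 had 16.8 in KO and 59.8 in KOE. Both were under 40 in KO, and no ratio is given. Eya1, a cofactor of fast fibre genes, was the exception with 58.9 in KO, 184 in KOE and 195 in WT. Of 9 genes tied to muscle wasting and denervation none was higher and 2 were lower, against 3.36% of all genes. After scaling to a common median 5 were lower, and with the mean of probe sets 1 was. The 2 were Trim63, a ubiquitin ligase of atrophying muscle, with 245 in KO, 114 in KOE and 98.0 in WT, and Fbxo30, another ligase, with 554 in KO and 344 in KOE. The 4 probe sets of Fbxo30 gave ratios from 0.62 to 0.89, so not all were past the limit. Fbxo32, the partner ligase of Trim63, was 1.39-fold lower at the probe set used and under the limit. Its 3 probe sets lay on both sides of equality. Smooth muscle genes, such as Myh11 (1.08-fold) and Acta2 (1.09-fold), were within the limit in all 13 cases.

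Fat cell genes lay in the same direction in part. The dermal white fat had been removed from the skin, yet 6 of 14 white adipocyte genes were higher, against 5.91% of all genes, none was lower and the signals summed to 24668 in KO, 32074 in KOE and 37273 in WT. Adipoq, which encodes the hormone adiponectin, had 296 in KO, 1289 in KOE and 2194 in WT. Cidec, a coat protein of lipid droplets, had 62.9 in KO, 195 in KOE and 334 in WT, and Fabp4, a fatty acid carrier, had 4731 in KO, 9406 in KOE and 15268 in WT, with each of its 3 probe sets past the limit. Lpl, which frees fatty acids from blood lipoproteins, was 1.82-fold higher at the probe set used and 1.81-fold at the other. Lep, the leptin gene, had 4.02 in KO, 139 in KOE and 221 in WT, and its KO signal is too low for a ratio. Other genes of fat cells did not differ past the limit, such as Pparg, the master factor of fat cell formation, at 0.93-fold and Cd36 at 0.98-fold. Car3, a carbonic anhydrase abundant in both fat and muscle, had 2832 in KO, 13210.4 in KOE and 14062 in WT, and each of its 3 probe sets was past the limit, between 1.83 and 6.24. Thrsp, a lipogenic protein induced by thyroid hormone, was 3.80-fold higher, while 18 of 20 genes of fatty acid synthesis, Fasn (1.14-fold) among them, lay within 1.5-fold. What part fat left on the skin has in any of these values was not tested.

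Collagen genes were higher in KOE wherever they passed the limit. Of 8 fibrillar collagens all had ratios above 1, 3 were higher past the limit, against 5.91% of all genes, and the median log2 ratio was 0.52. After scaling to a common median 2 were past it, with a median of 0.36, and with the mean of each gene's probe sets 6 were, with a median of 0.91. Col1a1, a chain of type I collagen, had 5880.4 in KO, 16038 in KOE and 16664 in WT, and its probe sets gave 2.73- and 3.31-fold. Its partner chain Col1a2 was not past the limit, with 26024 in KO, 33069 in KOE and 30904 in WT at the probe set used, but its 3 probe sets gave ratios from 1.27 to 2.05. Col3a1 was 1.47-fold at the probe set used and 2.97-fold at the other, and Col5a2, which sets fibril width, was 1.65-fold and 2.27-fold. Col5a3 had 136 in KO, 321 in KOE and 291 in WT.

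Of 17 other collagens 5 were higher, against 5.91% of all genes, none was lower and the median log2 ratio was 0.50. After scaling to a common median 3 were higher. Col14a1, which binds to fibril surfaces, had 72.0 in KO, 183 in KOE and 471 in WT, and Col6a1, of the beaded filaments around cells, had 1949 in KO, 3018 in KOE and 3132 in WT. The basement membrane chains Col4a1 and Col4a2 stayed within the limit at 1.23- and 1.28-fold, and so did Col17a1 and Col7a1, which fasten the epidermis to the dermis, at 1.06- and 0.81-fold. Among 19 genes of collagen assembly 3 were higher, against 5.91% of all genes, namely Lox, P4ha2 and Sparc. Lox, which crosslinks the fibrils, had 1721 in KO, 2905 in KOE and 3577 in WT. The prolyl hydroxylase P4ha2 had 669.5 in KO, 1122 in KOE and 1259.6 in WT. Sparc, a collagen-binding matrix protein, had 18864 in KO, 33122 in KOE and 33064 in WT. All 3 probe sets of Sparc were past the limit, from 1.76 to 2.37. The collagen chaperone Serpinh1 was 1.25-fold and the hydroxylase P4ha1 0.90-fold.

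Other matrix genes went both ways. Eln, elastin, had 422 in KO, 739 in KOE and 713 in WT and Mfap4, a microfibril protein, had 498 in KO, 827 in KOE and 1970.1 in WT, while Efemp1, a fibulin, had 6231 in KO, 3939 in KOE and 3597 in WT and Emilin2 was 1.79-fold lower. Of 15 elastic fibre genes 3 were higher and 3 lower, against 5.91% and 3.36% of all genes. After scaling to a common median 1 was higher and 5 were lower. Postn, periostin, a matrix protein that was counted with the basal epidermis, was the only gene of that list past the limit, with 4512 in KO, 9794 in KOE and 8306 in WT. Mmp3, which degrades matrix, was higher with 2609 in KO and 5785 in KOE, and Mmp19 was 1.73-fold lower. The proteoglycans Dcn and Bgn were 0.95- and 0.92-fold. Among 23 genes of TGF-β and PDGF signaling 1 was higher and 3 were lower, against 5.91% and 3.36% of all genes. The higher was Tgfb2, 1.72-fold at the probe set used, with ratios from 1.17 to 1.84 over its 4 probe sets. By PCR the study found Tgfb2 and Tgfb3 unchanged among its groups. Those lower were Ccn1, Thbs1 and Tgfbr3. Ccn1, a matrix protein induced quickly by growth factors, had 3996 in KO, 1399 in KOE and 770.1 in WT and was lower at all 4 of its probe sets, with ratios from 0.35 to 0.65. On the arrays Tgfb1, Pdgfb and Ccn2 were 1.12-, 0.99- and 1.17-fold. The other probe set of Pdgfb gave 1.48-fold. In its results the study reports higher PCR levels of these genes in KO than in WT, with a tendency to decline in KOE. Its abstract instead calls them upregulated by pESM. The array signals of Tgfb1 and Ccn2 were not lower in KOE, and neither differed past the limit.

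The 11 compared genes of the study's calcium signaling table had 9 higher in KOE, against 5.91% of all genes. None of the 11 was lower, and their median log2 ratio was 0.73. The study picked these genes on the same arrays, so the direction is not independent evidence. Only Casq1, a muscle gene, exceeded 3-fold. The others included the channels Cacna1a (1.87-fold), Cacna1d (1.59-fold) and Trpv6 (1.70-fold), whose KO signals of 41.3, 59.2 and 49.3 were close to the lower limit. After scaling to a common median 5 of the 11 were past 1.5-fold, and with 40 added to every signal 3 were. Trpv6 had 84.1 in KOE and 360 in WT. Trpv4, a channel that responds to warmth and stretch, had 139.8 in KO, 203 in KOE and 248 in WT, within the limit. By PCR the study found Trpv3, Trpv4 and Trpv6 significantly lower in KO and KOE than in WT. Their increases from KO to KOE were not significant there. The study's table on growth of epithelial tissue, chosen in the same way, had 16 of 31 higher, against 5.91% of all genes, and none lower. Of its genes, Fgf1, a growth factor for fibroblasts, had 214 in KO, 402 in KOE and 270.2 in WT, and its 3 probe sets gave ratios from 1.29 to 2.29. Wnt7a had 64.4 in KO, 98.9 in KOE and 80.5 in WT, while Wnt5a was 1.01-fold at the probe set used and up to 1.88-fold at its others. Tert, the telomerase enzyme, had 17.1 in KO, 44.4 in KOE and 7.26 in WT, under 40 in KO and in WT. By PCR the study reports Tert significantly lower in KO than in WT, with KOE between them and not significantly different from KO. The array order differed, WT being the lowest, at signals too weak for a ratio.

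Immediate early genes were lower in KOE where they passed the limit. Of 34 compared, 12 were lower in the KOE array and 0 higher, against 3.36% of all genes lower, and 32 had ratios below 1. Their median log2 ratio was −0.35 as deposited and −0.51 after scaling to a common median. Nr4a1, an orphan nuclear receptor, had 3580.3 in KO, 948 in KOE and 495 in WT, and its relative Nr4a3 had 523 in KO, 151 in KOE and 119 in WT. Nr4a2 was lower at the probe set used, with 635 in KO and 326 in KOE, but its 5 probe sets lay on both sides of equality. Fosb, a partner in the AP-1 factor, had 666 in KO, 179 in KOE and 135 in WT, Fos had 8737 in KO, 4876 in KOE and 4756 in WT and Atf3, a factor induced by stress, had 1573 in KO, 715 in KOE and 207 in WT. Ptgs2, the inducible cyclooxygenase, had 291 in KO, 83.6 in KOE and 39.2 in WT. In each of these genes the KO array was the highest of the 3. Others of the class lay within the limit. Egr1, Junb, Klf4 and Myc were 0.93-, 0.90-, 1.02- and 0.93-fold. None of 16 heat shock genes was past the limit (2 were lower after scaling to a common median). Of the 16, 4 had ratios above 1, and the median log2 ratio was −0.14. Hspa1a was 0.69-fold and Hspa1b 0.97-fold. Immediate early genes also respond to how tissue is handled, and the part of handling in these values was not tested.

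Promoters of both lower immediate early genes that hold the palindromic cAMP response element are shown, with TGACGTCA in capitals. They lie at chr1:134079106-134079405 (minus strand) for Btg2, an antiproliferative gene, and at chr15:79347270-79347569 (plus strand) for Maff, a small Maf factor. Maff has 3 promoters in the table, and the one with the element is printed.
Btg2: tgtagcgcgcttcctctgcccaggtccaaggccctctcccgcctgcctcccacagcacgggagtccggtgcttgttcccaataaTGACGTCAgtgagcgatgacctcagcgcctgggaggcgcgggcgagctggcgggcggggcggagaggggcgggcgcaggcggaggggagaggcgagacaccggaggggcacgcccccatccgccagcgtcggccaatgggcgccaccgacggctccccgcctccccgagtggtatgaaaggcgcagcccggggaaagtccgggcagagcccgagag
Maff: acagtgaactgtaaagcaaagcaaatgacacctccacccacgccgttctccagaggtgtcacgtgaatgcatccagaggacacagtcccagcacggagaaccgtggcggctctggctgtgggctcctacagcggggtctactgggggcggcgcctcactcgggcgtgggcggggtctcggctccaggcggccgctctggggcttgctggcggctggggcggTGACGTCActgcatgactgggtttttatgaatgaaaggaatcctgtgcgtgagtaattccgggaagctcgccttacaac
The element, which reads the same on both strands, starts 166 bases before the start of Btg2 and 29 bases before that of Maff. It was held by 3 of 27 immediate early genes with a promoter in the table, or 11.1%, and by 2.03% of all genes. The third gene was Dusp1, a phosphatase for MAP kinases. Btg2 had 2287 in KO and 1515 in KOE, Maff had 773 in KO and 442 in KOE and Dusp1 had 8007 in KO and 5839.8 in KOE, so that only the first 2 were past 1.5-fold. Nr4a1, Nr4a3 and Fosb do not hold these letters in this window.

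Macrophage genes were also lower. Of 15 compared, 8 were lower, against 3.36% of all genes, none was higher and all had ratios below 1, with a median log2 ratio of −0.72 and signals that summed to 26425 in KO, 16709 in KOE and 22138 in WT. Mrc1, the mannose receptor of tissue macrophages, had 2612 in KO, 1189 in KOE and 1826 in WT, Cd163, a scavenger receptor for haemoglobin, had 1493 in KO, 677 in KOE and 1017 in WT and Lyz2, lysozyme, had 8702 in KO, 5189 in KOE and 6906 in WT. The C1q chains C1qa, C1qb and C1qc were 1.79-, 1.93- and 1.71-fold lower at the probe sets used, though 1 probe set of C1qb gave 0.98. General markers of macrophages lay within the limit. Csf1r, the receptor for the macrophage growth factor, was 0.87-fold, Adgre1, known as F4/80, 0.92-fold and Cd68 0.81-fold. With the mean over each gene's probe sets, 6 of the 15 genes were lower. Fewer macrophages and less of these RNAs per macrophage cannot be told apart here.

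Mast cell and neutrophil genes had 3 of 7 and 4 of 7 lower, against 3.36% of all genes, with none higher. Cpa3, a protease of mast cell granules, had 1404 in KO, 729 in KOE and 744 in WT, Mcpt4, a chymase, had 835 in KO, 418 in KOE and 534 in WT and Ms4a2, a chain of the IgE receptor, had 143 in KO, 41.9 in KOE and 71.5 in WT. The KOE signal of Ms4a2 was close to the lower limit, and its other probe set gave a ratio of 0.72, within 1.5-fold. S100a8 and S100a9, the chains of calprotectin, had 815 in KO, 293 in KOE and 982 in WT for the former and 550.2 in KO, 282 in KOE and 187 in WT for the latter. Lymphocyte and antigen-presenting genes lay mostly within the limit. Of 9 T and natural killer cell genes 1 was higher, against 5.91% of all genes, and none lower, with Cd3e at 0.99-fold. Of 14 MHC class II and related genes 3 were higher and 1 lower, against 5.91% and 3.36%. After scaling to a common median 1 was higher and 2 were lower. H2-Aa, H2-Ab1 and Cd74 were 1.09-, 1.13- and 1.23-fold, with the 4 probe sets of H2-Aa up to 1.73. Itgax was 1.66-fold and Zbtb46 1.80-fold, the latter with a probe set as low as 1.04. Lyve1, which marks lymphatic vessels and also some tissue macrophages, had 1327 in KO, 711 in KOE and 378 in WT, and Flt4, a lymphatic growth factor receptor, had 530.3 in KO, 344 in KOE and 257 in WT, whereas Prox1, the factor that sets lymphatic identity, was 1.15-fold. None of 16 blood vessel genes was past the limit, with Pecam1 at 1.09-fold.

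Chemokines and interleukins past the limit were more often lower than higher. Of 20 chemokines 7 were lower and 3 higher, against 3.36% and 5.91% of all genes. Cxcl13, which draws B cells, had 1481 in KO, 266 in KOE and 159 in WT, and its probe sets gave ratios of 0.18 and 0.30. Ccl11, which draws eosinophils, had 655 in KO, 366 in KOE and 210.3 in WT, Ccl12, which draws monocytes, had 300.2 in KO, 118 in KOE and 244 in WT and Ccl20 had 604 in KO, 305 in KOE and 222 in WT. The 3 higher were Ccl4, Ccl5 and Cxcl10, with 97.4 in KO and 223 in KOE, 48.5 in KO and 174 in KOE and 74.4 in KO and 132 in KOE respectively. Cxcl9, like Cxcl10 a target of interferon-γ, had 6.14 in KO, 132 in KOE and 196 in WT, too low in KO for a ratio. Interferon response genes were higher in 3 of 22 cases, against 5.91% of all genes, namely Oas1a, Gbp3 and Cxcl10. None was lower as deposited, and 1 was lower after quantile normalization.

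Of 30 interleukins and receptors 9 were lower, against 3.36% of all genes, and 2 were higher, a share near the 5.91% of all genes. Il1b, a central inflammatory cytokine, had 486 in KO, 142 in KOE and 218 in WT, and Il22ra2, a decoy receptor for IL-22, had 8229.6 in KO, 2757 in KOE and 462 in WT, so that KOE lay between WT and KO. Tslp, a cytokine that keratinocytes release in allergic inflammation, had 303 in KO, 139.8 in KOE and 100.4 in WT, and the IL-36 ligands Il1f6, Il1f8 and Il1f9 were 1.77-, 1.69- and 1.68-fold lower. Il10ra, a chain of the receptor for the cytokine these mice lack, had 104 in KO, 48.3 in KOE and 71.2 in WT. Il33 and Il6ra were 0.98- and 0.99-fold. Serum and acute phase genes had 7 of 20 lower and 2 higher, against 3.36% and 5.91% of all genes. After scaling to a common median 9 were lower and 1 was higher. Ttr, transthyretin, had 1594 in KO, 586 in KOE and 4.17 in WT with all 4 probe sets lower, and Alb, albumin, had 334 in KO, 109 in KOE and 77.1 in WT, while Hp, haptoglobin, was higher with 249 in KO, 707 in KOE and 2724 in WT. Red blood cell genes were lower in 2 of 4 cases, against 3.36% of all genes. Their signals summed to 1542 in KO, 1101 in KOE and 1688 in WT. The part of blood left in the tissue in these values was not tested.

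**Figure D3:**
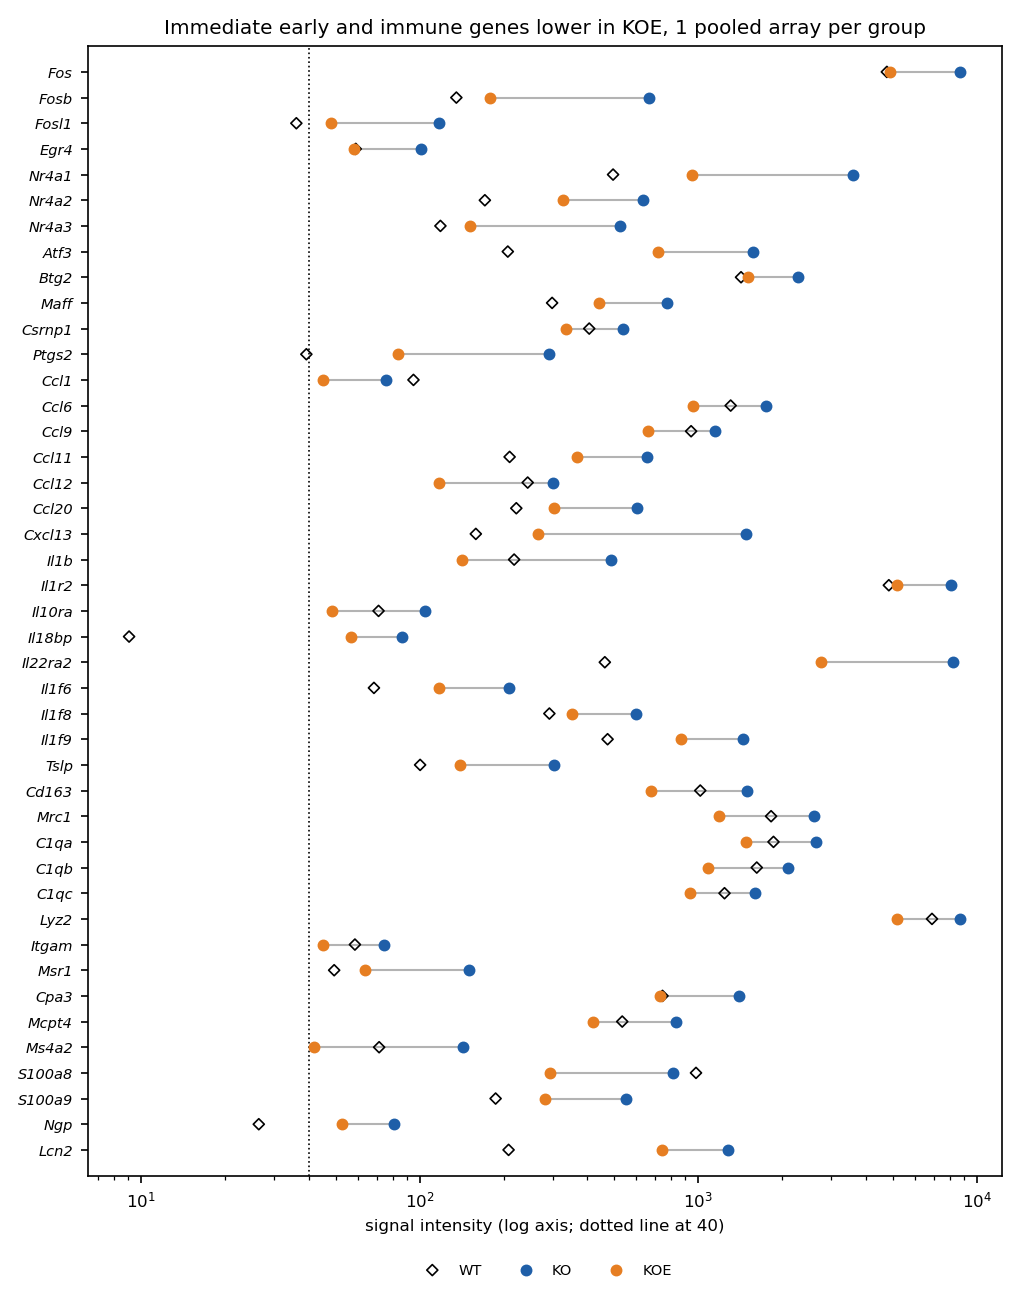
Signal intensity (horizontal, log axis) of the 43 genes of the immediate early, chemokine, interleukin, macrophage, mast cell and neutrophil lists that were lower in KOE past 1.5-fold, chosen for that direction, 1 pooled array per group. Points show KO (blue) and KOE (orange), diamonds show WT and grey lines join KO to KOE. The WT diamond lies left of the KOE point for Nr4a1 (495) and Il22ra2 (462), and right of the KO point for S100a8 (982).

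The keratins of the intact epidermis lay within the limit. Krt5 and Krt1 were 1.04- and 1.24-fold. Of 23 suprabasal and granular genes 1 was higher and 1 lower, shares near the 5.91% and 3.36% of all genes. The higher was the adhesion gene Dsg1b (1.51-fold). Hrnr, a protein of the cornified layer, was lower, with 6257 in KO, 3372 in KOE and 2815 in WT. The peptidases Klk5 and Klk7, which loosen the outermost cells, were 0.96- and 0.89-fold. None of 18 genes of the lipid barrier was past the limit. Genes that keratinocytes switch on when wounded or inflamed had 6 of 15 lower and 2 higher, against 3.36% and 5.91% of all genes. Epgn, a ligand of the EGF receptor, had 2801 in KO, 702 in KOE and 454 in WT, Krt6b, a wound keratin, had 231 in KO, 102 in KOE and 31.4 in WT and Fosl1, an AP-1 member, had 117 in KO, 48.0 in KOE and 36.1 in WT. S100a7l2, an S100 protein gene, opposed them with 54.5 in KO, 2914 in KOE and 4626 in WT, the largest ratio of all genes compared, at 53.5-fold. Krt6a, Krt16 and Krt17 lay within the limit at 0.91-, 1.18- and 1.17-fold.

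Hair follicle and pigment genes gave a divided picture. Of the growing follicle, 13 of 25 genes on the array reached 40 in both arrays and none was past the limit. Tchh, a protein of the inner root sheath, had 279 in KO, 278 in KOE and 24309 in WT, and Krt28 had 196 in KO, 202 in KOE and 11679.8 in WT, so that both knockout arrays were far below WT. Bulge and resting follicle genes were higher in 4 of 19 cases, against 5.91% of all genes, and none was lower. As deposited, their log2 ratios had a median of 0.40. Scaling to a common median left 3 of them higher and lowered the list median to 0.24. Lhx2, a factor of hair stem cells, had 1217 in KO, 2190.4 in KOE and 1954 in WT, Krt24 had 292 in KO, 578 in KOE and 433 in WT and Sfrp1, a Wnt inhibitor, had 869 in KO, 1345 in KOE and 2035 in WT. The 5 probe sets of Sfrp1 gave ratios from 0.97 to 1.93, and it was not past the limit after scaling to a common median. Lgr5, a marker of cycling follicle stem cells, was 1.33-fold. Of 12 melanocyte genes 4 were higher, against 5.91% of all genes, and none was lower. After scaling to a common median 2 were higher and 1 was lower. Dct and Pmel, both of pigment formation, had 285 in KO, 718 in KOE and 4761 in WT for the former and 129 in KO, 370.1 in KOE and 3117 in WT for the latter, and Tyrp1 had 127 in KO, 210.2 in KOE and 3125 in WT. Mitf, the master factor of melanocytes, was 1.09-fold. In all 3 pigment genes KOE lay between KO and WT. Replication genes were lower in 2 of 31 cases, Bub1 and Kif11, a share near the 3.36% of all genes. The count was 5 after scaling to a common median and 1 with the mean of probe sets, and Mki67 was 0.96-fold.

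**Figure D4:**
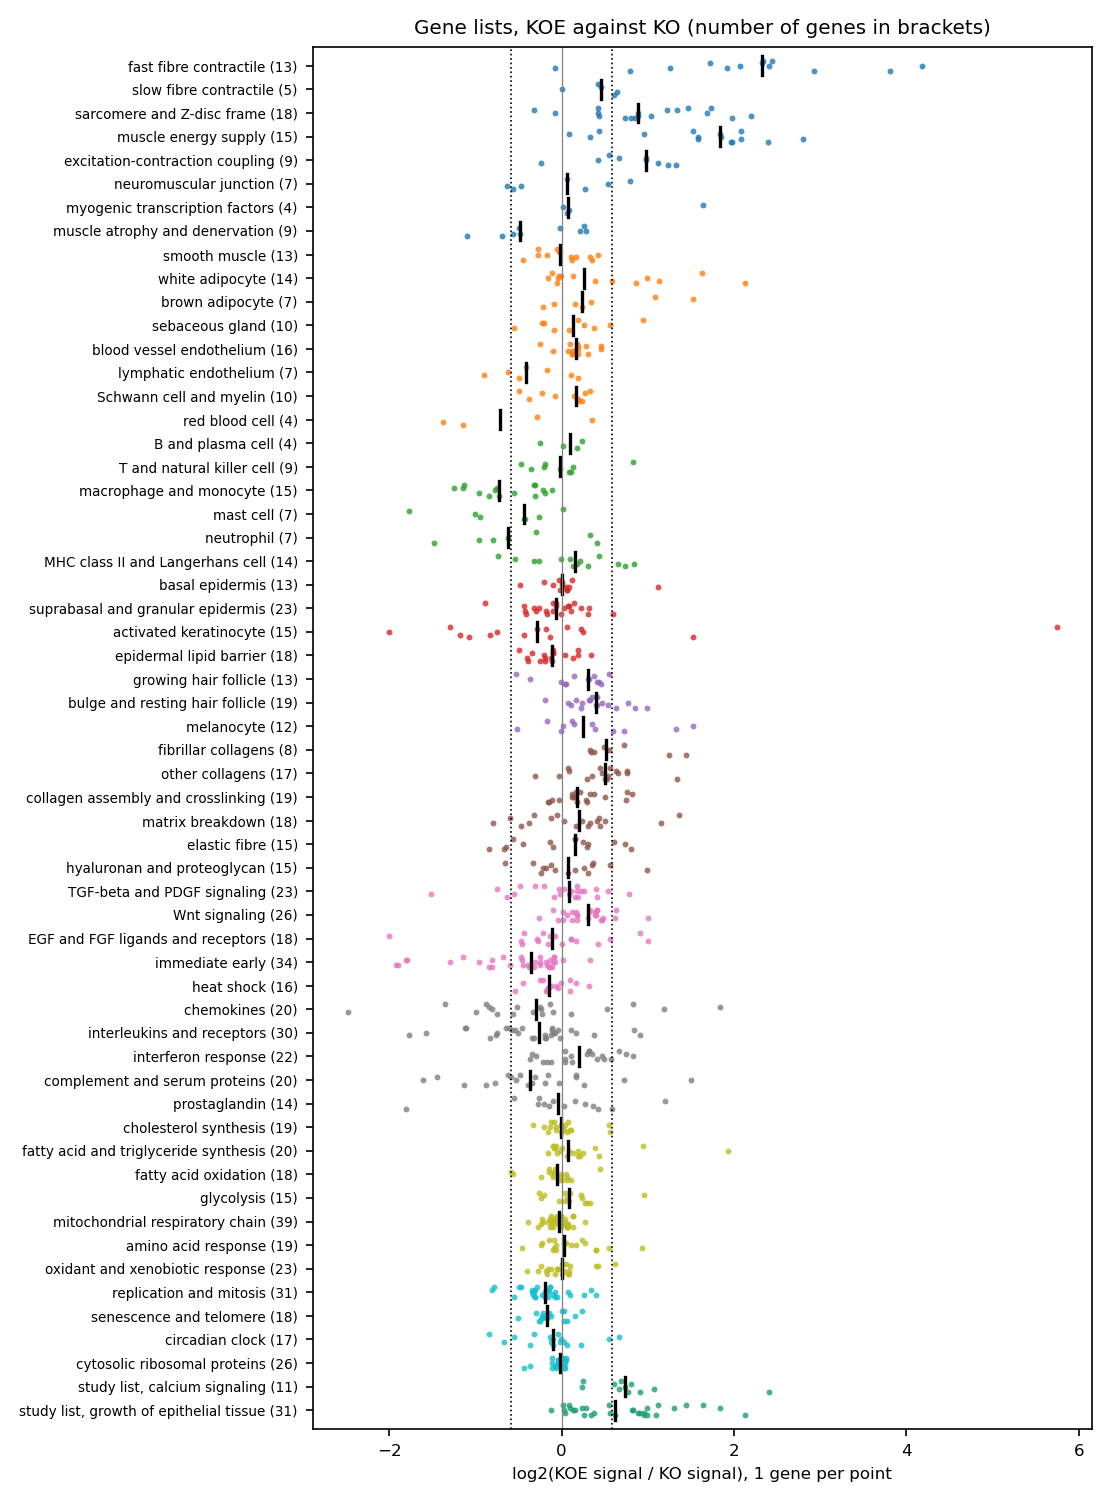
Log2 ratio of the KOE to the KO signal (horizontal axis) for each gene of the 58 lists with at least 40 in both arrays, 1 pooled array per group, with the number of genes in brackets. Each point is a gene, black bars are list medians, colours mark groups of related lists and dotted lines mark 1.5-fold. The fast fibre list lies farthest to the right, with a median of 2.32, the macrophage list farthest to the left, at −0.72, and the ribosomal protein and respiratory chain lists lie close to 0.

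Some genes outside these lists were among the 15 highest or lowest ratios. Gal, which encodes the neuropeptide galanin, had 70.5 in KO, 780.5 in KOE and 1093 in WT, and Pyy, a gut hormone of the neuropeptide Y family, had 126 in KO, 939.7 in KOE and 309 in WT, above both other arrays. Aplnr, the receptor for apelin, had 54.0 in KO, 340.3 in KOE and 501 in WT. Downward, Tac4, a tachykinin, had 276 in KO, 74.7 in KOE and 63.9 in WT and Tmem252, a membrane protein, had 136 in KO, 43.5 in KOE and 26.3 in WT. In 954 genes the signal was under 40 in KO and at least 40 in KOE, in 436 the reverse held, and no ratio is given for either. Only 3 of them reached 200 in the other array. Defb8, a defensin gene, had 21.5 in KO, 1439 in KOE and 3384 in WT, and Abcb9, a peptide transporter, had 210.3 in KO, 31.9 in KOE and 72.6 in WT. Soga1 had 20.3 in KO, 211 in KOE and 164 in WT, but another of its probe sets gave a ratio of 1.20.

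**Figure D5:**
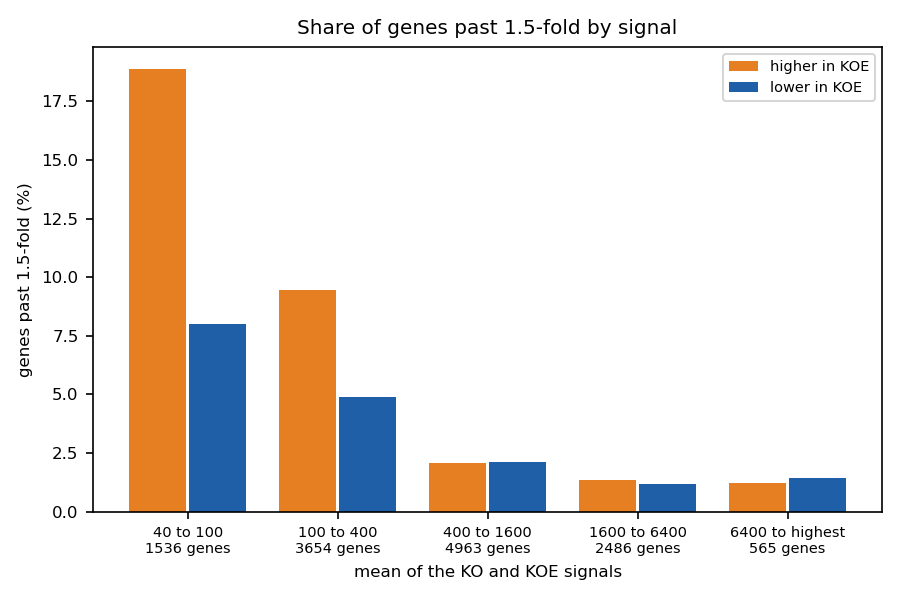
Share of genes past 1.5-fold (vertical axis, percent) by the mean of the KO and KOE signals (horizontal axis, with the number of genes in each range), 1 pooled array per group. Orange bars are genes higher and blue bars genes lower in KOE. The shares drop from 18.9% and 8.01% in the weakest range to 1.24% and 1.42% in the strongest.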

How the data were processed

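Back skin RNA was pooled by group, and 250 ng was labelled and read on 1 Affymetrix Mouse Genome 430 2.0 array for WT, KO and KOE each. The deposited values are linear signal intensities that the authors computed in R with Affymetrix Microarray Analysis Suite 5. The 2% trimmed mean of each array was checked to be 500. No replicate, image or detection call was analysed here, so no test was made and the number of arrays limits the precision. The 64 control probe sets were left out. Of the others, 34945 have 1 gene in the platform annotation, 932 have several and 9160 are unnamed here, and symbols of 34741 were matched by gene identifier. Each gene was represented by the probe set that was strongest on average over the 3 arrays. Ratios were formed as deposited for genes with at least 40 in KO and KOE, with a limit of 1.5-fold. Genes were named as the 15 highest and 15 lowest with probe sets that did not disagree, those the study names, and strong or most different members of each list. Further list members were picked for the text after their values were seen. The 58 lists and all members were chosen with earlier results of these data known, and 2 lists are the study's own. Alternatives changed the scaling, the signal limit, the fold limit, an offset of 40 and the probe sets used. Only the fold limit was tried on simulated signals. Their noise was smaller than the overall SD between probe sets of a gene, so that trial does not measure the error of the calls above. Python 3.11.15, numpy 2.4.6, pandas 2.3.3, scipy 1.17.1, R 4.3.3 and limma 3.58.1 were used.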

Additional observations from a re-analysis of the deposited data

How the results depend on the processing

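With 1 array a group, no replicate could be left out. No paired analysis was possible because each group has 1 array and the labels give no replicate numbers. The counts of genes higher and lower were 780 and 444 as reported. They became 471 and 882 after scaling to a common median and 437 and 283 with 40 added to every signal. With at least 40 in at least 1 array they were 1585 and 778, and with at least 100 in both 357 and 259. No signal limit gave 2944 and 1697, and a 2-fold limit 197 and 111. Quantile normalization gave 547 and 635 and cyclic loess 550 and 639. Genes with all of their probe sets past the limit numbered 58 higher and 35 lower. After scaling to a common median 23 were higher and 74 lower, and after quantile normalization 38 were higher. With 40 added, the fast fibre median was 2.03 and that of muscle energy genes 1.44. With the mean of all probe sets, excitation-contraction coupling was at 0.66 and fibrillar collagens at 0.91. With at least 40 in at least 1 array, the myogenic factors were at 0.42, mast cell genes at −0.95 and activated keratinocyte genes at −0.59. With no signal limit, slow fibre genes were at 0.0083 and mast cell genes at −0.998, and with at least 100 in both arrays red blood cell genes were at −0.28. Which part of a weak signal is background could not be judged without detection calls.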

Other observations

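Genes that glucocorticoid hormones are known to induce were looked at after their values had been seen, so the choice of the 20 genes is not independent of the result. Of 19 with at least 40 in both arrays, 6 were lower in KOE past 1.5-fold, against 3.36% of all genes, none was higher and 18 had ratios below 1, with a median log2 ratio of −0.46. Fkbp5, a chaperone that binds the hormone receptor, had signals of 3611 in KO, 2150.0 in KOE and 982 in WT, and both of its probe sets were past the limit. Tsc22d3, also known as GILZ, had 9709 in KO, 6269 in KOE and 3955 in WT, and its 4 probe sets gave ratios from 0.62 to 0.97. Cebpd, a transcription factor, had 5134 in KO, 2511 in KOE and 1090.2 in WT and Errfi1, an inhibitor of the EGF receptor, had 7076 in KO, 4024 in KOE and 2578 in WT, each with both probe sets past the limit. Zbtb16 was lower at the probe set used and 1.11-fold at another. Sgk1, a kinase of the same response, was 0.96-fold and Angptl4 1.09-fold.

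Among 17 clock genes, which vary with the time of day, 2 were lower and 1 higher, against 3.36% and 5.91% of all genes. The higher share was near that of all genes. After scaling to a common median 3 were lower and 0 higher. Per2 had 369 in KO, 206 in KOE and 146 in WT, though its 3 probe sets gave ratios from 0.49 to 1.03, and Cry1, its partner repressor, had 608 in KO, 384 in KOE and 294 in WT, while Nr1d1 had 223 in KO, 354 in KOE and 153 in WT. Dbp, an output of the clock, was 1.05-fold and Arntl, a core activator, 1.17-fold. Alas2, the first enzyme of haem synthesis in red cells, had 495 in KO, 223 in KOE and 77.7 in WT. Ptgds, which makes prostaglandin D2, had 418 in KO, 960.4 in KOE and 3863 in WT and Vldlr, a lipoprotein receptor, had 368 in KO, 704 in KOE and 673 in WT.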
